A study of Mus musculus with 11 samples.

Results

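AP-1 is a family of transcription factors in which a Jun protein (Jun, Junb or Jund) pairs with another Jun, with a Fos protein (Fos, Fosb, Fosl1 or Fosl2) or with an ATF protein. Most of these genes, together with Egr1, Atf3 and Ier2, are immediate early or early response genes, which many cells transcribe soon after growth factors, stress or ionizing radiation without first making new protein. MAP kinase cascades drive this burst through SRF, its ELK partners and CREB, and phosphatases of the Dusp family and mRNA decay close it again, so that the burst is usually over well before the time point sampled here. The 10 genes Fos, Fosb, Fosl1, Fosl2, Jun, Junb, Jund, Egr1, Atf3 and Ier2 were chosen by name, out of 35017 gene symbols quantified in the series. They were chosen with earlier results of these data known, so their comparison with all genes is a description. All 10 passed the filter on low counts that left 14091 genes for testing.

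The libraries were bulk RNA sequencing of KP1, a cell line from a mouse small cell lung cancer (SCLC) that lacks functional Rb and p53 and grows in suspension. The control group held 2 libraries of untreated cells, carrying the replicate numbers 2 and 3, and the irradiated group held 3 libraries of cells collected 24 h after 5 Gy of ionizing radiation, numbered 1 to 3. All libraries came from this one line in culture, and the labels do not say that replicates were separate cultures, so p-values measure only the spread between these libraries. The comparison asks which transcripts differ between irradiated and untreated SCLC cells. Single-cell samples of tumor leukocytes are not analysed here.

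Each library held 21185956 to 31036317 estimated reads. The neuroendocrine marker Chga was at 291.5 to 472.3 CPM (read counts scaled to a common depth with TMM factors) in all 5 libraries. Of the 7 listed neuroendocrine markers, Calca (log2 fold change 1.18), Uchl1 (1.14) and Syp (0.64) were called higher in irradiated cells and Ncam1 lower (-1.20). This stands against 12.7% of all tested genes called higher and 13.0% lower. None of these marker calls was kept with a correction for transcript length. The leukocyte, fibroblast and endothelial markers stayed below 2 CPM except Pdgfra, at 94.3 to 129.8 CPM. One property of the libraries separated the groups: the read-weighted mean transcript length was 4729 and 5463 bases in the controls and 3625 to 3998 bases in the irradiated libraries. Values with a correction for transcript length are given for each of the 10 genes. The part of this difference in the results was otherwise not tested. In bulk RNA, a change in the share of cells that express a gene and a change in RNA per cell cannot be told apart.

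Across the 10 genes, Junb, Jund and Ier2 were higher in irradiated cells at an adjusted p under 0.05 and none was lower (edgeR quasi-likelihood test, Benjamini-Hochberg adjustment over all genes tested). Of all tested genes, 12.7% were called higher and 13.0% lower. Without adjustment, 5 of the 10 had a p under 0.05 and were higher, adding Fos and Atf3, against 20.9% of all tested genes. All 10 estimates were above 0, as were 7192 of the 14091 genes tested. Their median log2 fold change was 0.80, against 0.02 for all genes tested. Fosl1 was below 0 with the correction for transcript length (-0.26), and Fosl2 and Egr1 were below 0 in some other fits. In 6 of the 10 genes (Fos, Jun, Junb, Jund, Atf3 and Ier2), every irradiated library was above both controls in CPM, as was the case for 30.1% of all tested genes. In none was every irradiated library below both controls (29.3% of all). On the scale per transcript length (TPM), 5 genes were above (15.4% of all) and Fosl1 below (42.7% of all). With the correction for transcript length, only Junb was called, against 4.21% of all genes called higher.

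The number called moved with the test, and so did the share of all genes. DESeq2 called 4 members higher (15.4% of all genes), edgeR without a filter on low counts called 5 (12.4%), and edgeR with RLE scaling or Salmon's effective lengths called 2 each (12.4% and 10.4%). A replicate block left 1 (4.15%), limma on log2(TPM + 0.5) left 1 (5.12%), and the block with the length correction left none (0.0%). Without control replicate 2 none was called (0.664%) and without control replicate 3 there were 3 (15.3%). Without irradiated replicate 1, 2 or 3 there were 1, 1 and 3 (6.04%, 4.93% and 11.3%). Junb was the member called in each of the settings with 1 call.

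**Figure D1:**
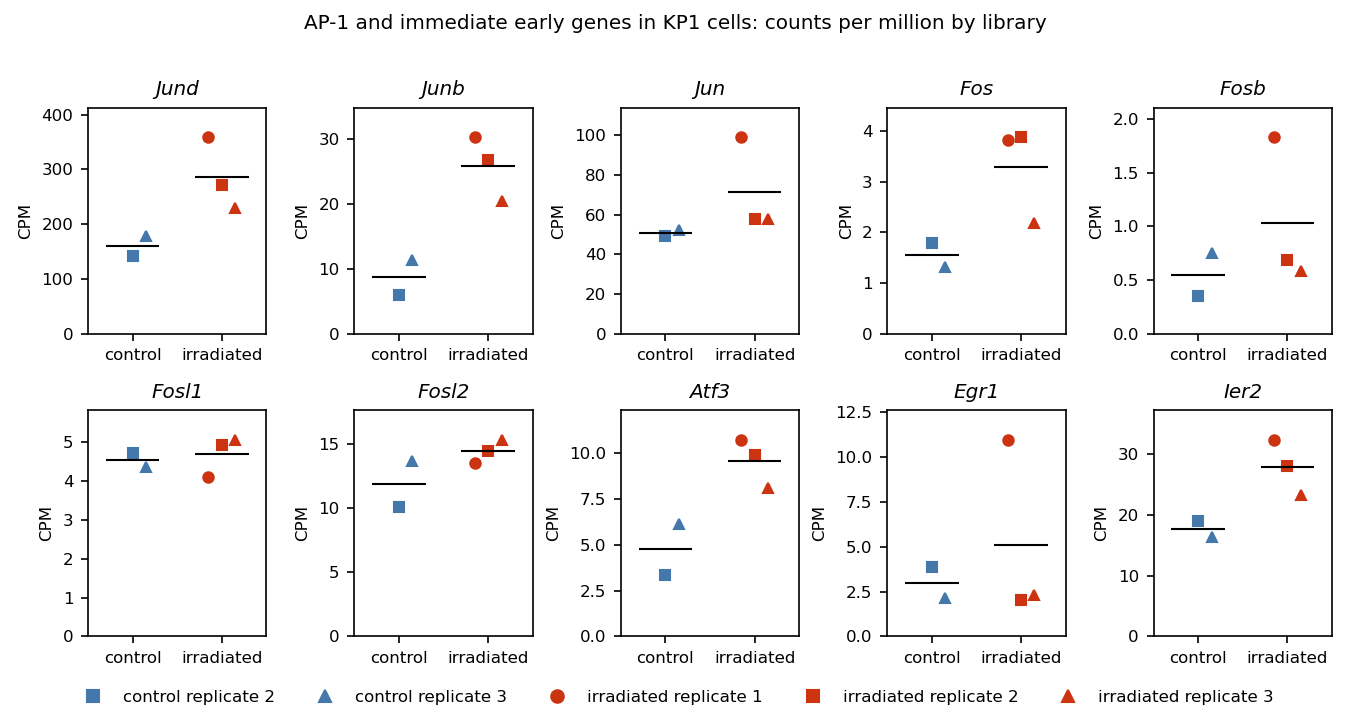
Read counts scaled for depth (CPM, with TMM factors) of the 10 genes, 1 panel a gene with its own axis from 0; each point is 1 library and the horizontal bar is the group mean. The 3 irradiated libraries lie above both controls for Jund, Junb, Jun, Fos, Atf3 and Ier2, and irradiated replicate 1 stands far above the rest for Jun, Fosb and Egr1.

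Promoter sequences are shown for inducible members whose RefSeq start lies at or near that of the quantified transcript, so that the letters before each start can be compared. They are the 100 bases before the RefSeq start of Fos, Jun, Atf3 and Junb on GRCm38.p6, on the gene's strand. Capitals mark a cAMP response element core (TGACGT, or ACGTCA on the other strand) or the Jun-type AP-1 site (TGACATCA).
Fos, chr12:85473790-85473889, plus strand: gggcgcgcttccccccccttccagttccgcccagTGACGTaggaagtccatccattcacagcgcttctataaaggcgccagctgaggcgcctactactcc
Jun, chr4:95052223-95052322, minus strand: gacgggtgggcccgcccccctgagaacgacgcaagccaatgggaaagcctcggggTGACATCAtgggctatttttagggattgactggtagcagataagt
Atf3, chr1:191183334-191183433, minus strand: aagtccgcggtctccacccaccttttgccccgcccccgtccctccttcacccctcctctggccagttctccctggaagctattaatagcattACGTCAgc
Junb, chr8:84978749-84978848, minus strand: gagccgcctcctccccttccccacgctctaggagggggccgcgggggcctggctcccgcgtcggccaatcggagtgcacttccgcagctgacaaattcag
The core in Fos lies 66 to 61 bases before the start, the site in Jun 45 to 38 bases before it and the core in Atf3 8 to 3 bases before it. Junb held no match in this window. Over the same window of 32851 RefSeq promoters, 4.09% held the cAMP response element core, 1.96% the Jun-type site, 2.73% the general AP-1 site TGANTCA, 3.02% the EGR site GCGNGGGCG and 0.615% a CArG box, all read on both strands. The Jun-type site was added to the search after the sequences had been seen. The core and the Jun-type site begin with the same letters, TGAC, but neither contains the other. A match describes the letters only. Of the 10 genes 7 were in the promoter table, where Fosl1, Egr1 and Ier2 are missing, and the RefSeq starts of Fosl2 and Jund lie away from the start of the quantified transcript, by 671 bases in Fosl2 and farther in Jund, and are not shown. The start of Fosb is not shown either, to keep the comparison short. Among the sequences not shown, the EGR site lay 50 to 42 bases before the start of Fosb. In Fosl2 it lay 79 to 71 bases before the RefSeq start. These libraries measured no binding at these sites, and no level below was tested against them.

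The Jun family carried most of the AP-1 mRNA. Per transcript length, Jund was the most abundant of the 10 genes, with 186.5 and 242 TPM in the controls (TPM is an abundance per transcript length, scaled to the same total in every library), which placed it at percentile 95.1 of all tested genes. The next in the order of control TPM were Jun (mean 32.2), Ier2 (26.4) and Junb (10.5), and the ranges of neighbours in this order did not overlap. Fosl1 (5.89), Atf3 (5.17) and Fosl2 (4.38) came next and overlapped with their neighbours, as did Egr1 (1.98) and Fos (1.57). Fosb was lowest at 0.299 TPM. Differences in level between genes were not tested.

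**Figure D2:**
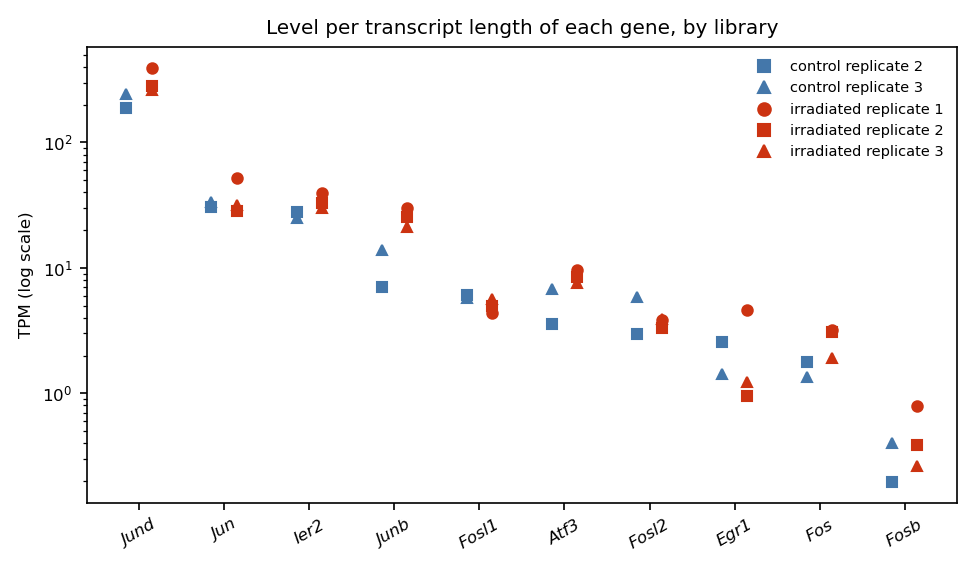
Level per transcript length (TPM, log scale) of each gene in each library, ordered by the control mean. Jund lies far above every other gene in each of the 5 libraries, at 186.5 to 394 TPM, and Fosb is below 1 TPM in all of them.

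Junb, a Jun protein whose dimers often restrain those of Jun, had the largest estimated fold change of the 10 genes with all libraries in the fit (Junb, chromosome 8, 84974484 to 84978718, minus strand, GENCODE M21). Its level was 5.95 CPM in control replicate 2 and 11.4 CPM in control replicate 3, from 170 and 303 reads. In irradiated replicates 1, 2 and 3 it was 30.3, 26.8 and 20.4 CPM, from 760, 587 and 561 reads. The lowest irradiated library thus lay above the highest control, although control replicates 2 and 3 differed by a larger ratio than control and irradiated replicates 3. The log2 fold change was 1.58 ± 0.31 (SE), a 2.98-fold higher level (edgeR adjusted p = 0.012). It was the only member past a log2 fold change of 1.5 with an adjusted p under 0.05, a limit that 1.65% of all tested genes passed upward. With the transcript length correction it was 1.33 ± 0.27 (edgeR adjusted p = 0.032), and without control replicate 2 it was 1.20 (edgeR adjusted p = 0.059), below the estimates for Fos (1.34) and Egr1 (1.28) in that fit. All reads were assigned to its single-exon transcript Junb-201, which shares no exon base with the neighbouring Prdx2 on the other strand.

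Jund, which unlike the other Jun genes is expressed in most resting cells, was also higher (Jund, chromosome 8, 70698949 to 70700616, plus strand). Control replicates 2 and 3 held 142 and 178.6 CPM, and irradiated replicates 1, 2 and 3 held 358.9, 271.4 and 230 CPM. No library of one group reached into the range of the other, and the log2 fold change was 0.84 ± 0.22 (edgeR adjusted p = 0.028). The call was lost with the transcript length correction (0.52 ± 0.19, edgeR adjusted p = 0.115), with a replicate block (0.65, edgeR adjusted p = 0.201) and without irradiated replicate 1 (0.65, edgeR adjusted p = 0.071), control replicate 2 (0.70, edgeR adjusted p = 0.140) or irradiated replicate 2 (0.88, edgeR adjusted p = 0.057). An antisense gene that was not quantified in the files, Gm11175, covers 52.6% of the bases of Jund-201, and the strand setting of the libraries is not given in the sources used here, so reads from the pair cannot be told apart.

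Jun, the founding Jun protein and a target of the JNK kinases, was dominated by a single library (Jun, chromosome 4, 95049034 to 95052222, minus strand). The controls stood at 49.2 and 52.2 CPM and irradiated replicates 2 and 3 at 57.9 and 57.9 CPM, whereas irradiated replicate 1 reached 99.1 CPM. The log2 fold change of 0.50 ± 0.25 did not pass the test (edgeR adjusted p = 0.166), and it was 0.65 ± 0.25 with the transcript length correction (edgeR adjusted p = 0.131) and 0.19 without irradiated replicate 1 (edgeR adjusted p = 0.400). On the TPM scale the groups overlapped, at 30.8 and 33.7 in the controls and 51.7, 28.6 and 31.7 in the irradiated libraries. Its antisense neighbour Junos, not quantified in the files, shares 7.28% of the bases of Jun-201.

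Summed over the Jun family, the TPM level was 224 and 290 in the controls and 476, 337 and 317 in irradiated replicates 1, 2 and 3. The share of Jund was nearly constant, from 82.8% to 84.0% of the family's TPM in every library. Junb took 3.16% and 4.83% in the controls and 6.33%, 7.52% and 6.71% in irradiated cells, while Jun took 13.7% and 11.6% in the controls and 10.9%, 8.49% and 10.0% in irradiated cells. Within the family, then, the share of Junb was higher and that of Jun lower in every irradiated library than in either control, a description of 5 libraries for which the smallest exact two-sided permutation p is 0.1.

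The Fos genes, whose proteins need a Jun partner to bind DNA, were low. Fos itself (chromosome 12, 85473890 to 85477273, plus strand) had 1.79 and 1.31 CPM in control replicates 2 and 3, and 3.82, 3.88 and 2.19 CPM in irradiated replicates 1, 2 and 3. All irradiated libraries were above both controls, on 35 to 96 reads a library. Its log2 fold change was 1.08 ± 0.46 (95% interval 0.04 to 2.13) and missed the threshold after adjustment (edgeR adjusted p = 0.110), as it did with the transcript length correction (0.91 ± 0.45, edgeR adjusted p = 0.206). Its adjusted p stayed above 0.05 under each of 13 other settings of the fit, with estimates from 0.62 to 1.34.

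Fosb (chromosome 7, 19302696 to 19310051, minus strand), the Fos gene known for its long-lived splice product in neurons, had only 10 to 46 reads a library. Its level was 0.350 and 0.751 CPM in the controls and 1.83, 0.685 and 0.583 CPM in irradiated replicates 1, 2 and 3. Only irradiated replicate 1 lay outside the range of the controls, and the estimate of 0.91 ± 0.77 (edgeR adjusted p = 0.408) was 0.20 without it. With the transcript length correction it was 1.16 ± 0.79 (edgeR adjusted p = 0.353). The reads fell on 5 annotated transcripts over the libraries. All reads of control replicate 3 and irradiated replicate 3 and most of those of irradiated replicate 1 were on Fosb-201, and none of those of control replicate 2 and irradiated replicate 2.

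Fosl1, which encodes Fra-1 and marks many mesenchymal and invasive tumor cells, did not differ detectably (chromosome 19, 5447547 to 5455946, plus strand). It was at 4.73 and 4.35 CPM in the controls and at 4.10, 4.93 and 5.06 CPM in irradiated replicates 1, 2 and 3. The log2 fold change was 0.05 ± 0.30, with a 95% interval from -0.63 to 0.73. On the TPM scale all 3 irradiated libraries lay below both controls (5.65 or less against 5.74 or more), as did 42.7% of all tested genes, and with the transcript length correction the estimate was -0.26 ± 0.29 (edgeR adjusted p = 0.574). Fosl1-201 shares 62.4% of its bases with Ccdc85b on the opposite strand, a gene with 371 and 504 reads in the controls and 662 to 864 in irradiated cells, so the Fosl1 reads are uncertain.

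Fosl2, the gene of Fra-2, was at 10.1 and 13.7 CPM in the controls and 13.5, 14.5 and 15.3 CPM in irradiated replicates 1, 2 and 3 (chromosome 5, 32135801 to 32157842, plus strand). Irradiated replicate 1 lay just below control replicate 3, so the groups overlapped. The log2 fold change was 0.28 ± 0.22 (edgeR adjusted p = 0.369) and 0.90 ± 0.23 with the transcript length correction, just short of the threshold (edgeR adjusted p = 0.053). Its main transcript Fosl2-201, at 6537 bases, was the longest among those of the 10 genes. A retained-intron transcript of Fosl2 took 44.5 reads in control replicate 3, 15.4 in irradiated replicate 1 and 0 in the other libraries. Together the 4 Fos genes summed to 12.1 ± 1.65 TPM in control (SD, n = 2) and 11.9 ± 0.245 TPM in irradiated cells (SD, n = 3). Most of this sum came from Fosl1 and Fosl2, so it says little about Fos. Fos alone was at 1.78 and 1.35 TPM in the controls and 3.18, 3.07 and 1.90 TPM in irradiated replicates 1, 2 and 3.

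Atf3, a stress-induced ATF protein that pairs with Jun proteins, was at 3.36 and 6.12 CPM in the controls and at 10.7, 9.91 and 8.09 CPM in irradiated replicates 1, 2 and 3 (chromosome 1, 191170296 to 191218039, minus strand). The groups were separate on both the CPM and the TPM scale. Its log2 fold change of 1.01 ± 0.32 fell just short of the threshold (edgeR adjusted p = 0.051), whereas DESeq2 gave an adjusted p of 0.018. With the transcript length correction it was 0.83 ± 0.29 (edgeR adjusted p = 0.103). Leaving out control replicate 2 gave 0.66 (edgeR adjusted p = 0.231) and leaving out control replicate 3 gave 1.53 (edgeR adjusted p = 0.017), so the estimate depended on which control was used. Every read was assigned to Atf3-201 among its 3 annotated transcripts.

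Ier2, a short nuclear immediate early protein, was at 19.1 and 16.4 CPM in the controls and at 32.4, 28.04 and 23.2 CPM in irradiated replicates 1, 2 and 3 (chromosome 8, 84661331 to 84662852, minus strand). No irradiated library fell into the control range. The log2 fold change of 0.65 ± 0.20 passed narrowly (edgeR adjusted p = 0.047). It was 0.25 ± 0.20 with the transcript length correction (edgeR adjusted p = 0.436), and the call was kept in 3 of the 13 other settings.

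Egr1, the zinc-finger factor that SRF and ELK proteins induce, was high in a single irradiated library (chromosome 18). The controls were at 3.85 and 2.14 CPM and irradiated replicates 2 and 3 at 2.06 and 2.29 CPM, but irradiated replicate 1 was at 10.95 CPM. With all libraries the log2 fold change was 0.77 ± 0.73 (edgeR adjusted p = 0.463), or 1.00 ± 0.75 with the transcript length correction (edgeR adjusted p = 0.401), and without irradiated replicate 1 it turned to -0.46 (edgeR adjusted p = 0.501). The extra reads of that library lay mostly on one of the annotated mRNAs. Egr1-201 held 189.2 of its reads, against 0, 5.03, 13.99 and 13.89 in control replicates 2 and 3 and irradiated replicates 2 and 3. Egr1-202 held 110, 52.0, 85.8, 31 and 49.1 reads in control replicates 2 and 3 and irradiated replicates 1, 2 and 3.

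**Figure D3:**
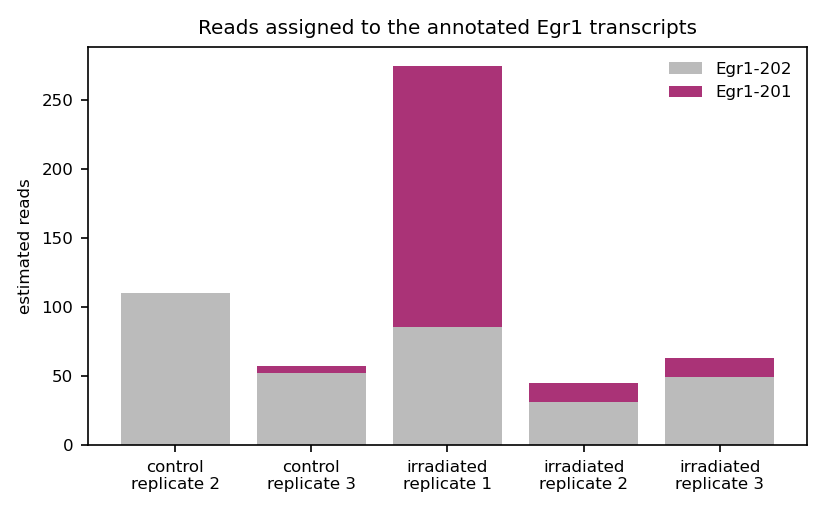
Estimated reads of the 2 Egr1 mRNAs in each library, stacked, not scaled for depth. Irradiated replicate 1 holds 275 reads in all, of which most were assigned to Egr1-201, and the other libraries hold 45 to 110, mostly on Egr1-202.

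Irradiated replicate 1 was the highest library for 7 of the 10 genes, compared with 20.3% of all tested genes. In Fosb, Jun and Egr1 it was at least 1.5 times every other library, which held for 2.68% of all tested genes. The same was seen in other lists, for genes named here after their values were seen: for 3 of 16 feedback regulators, all MAP kinase phosphatases, for Ccn2 among the other immediate early genes, and for Insm1 and Calca, 2 of the 7 neuroendocrine markers. Dusp4 was at 42.5 CPM there and at 9.27 to 16.7 CPM in the other libraries, Dusp6 at 6.85 against 0.863 to 1.40 CPM, and Dusp8 at 45.4 against 26.4 to 29.8 CPM. Insm1 was at 934.3 against 407.5 to 614 CPM, Calca at 55.7 against 13.3 to 33.8 CPM and Ccn2 at 3.23 against 0.113 to 0.437 CPM. Irradiated replicate 1 was collected under the same labels as the other irradiated libraries, and what sets it apart was not tested. Without it, Junb was the one member called, with a log2 fold change of 1.45 (edgeR adjusted p = 0.043).

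**Figure D4:**
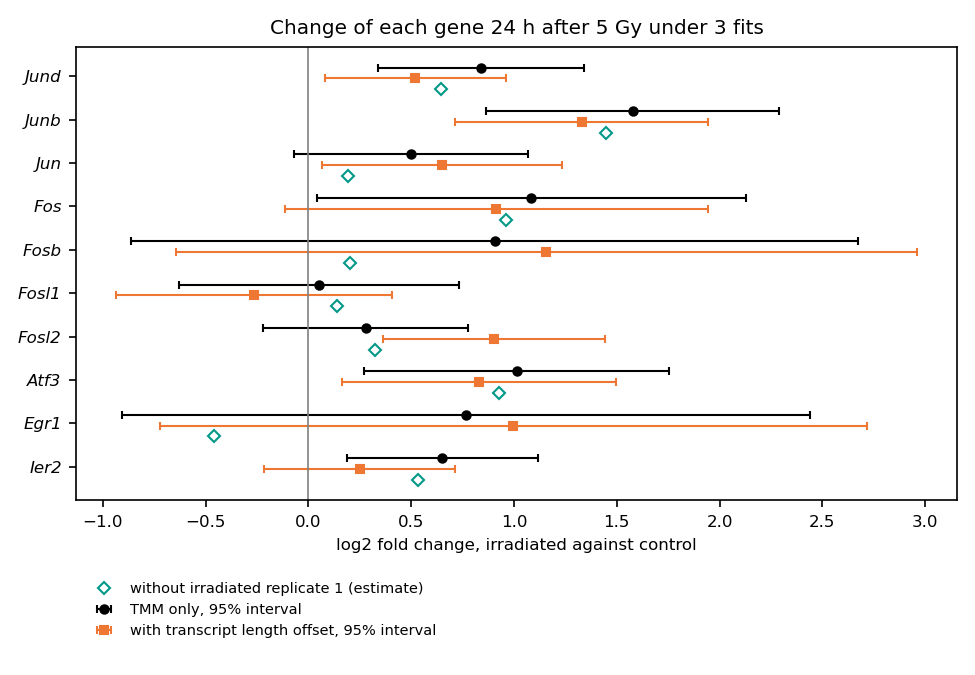
Log2 fold change of each gene, irradiated against control, with TMM scaling only (circles) and with the transcript length offset (squares), both with 95% intervals, and without irradiated replicate 1 (open diamonds, estimate alone). Junb stays well above 0 in all of them, at 1.58, 1.33 and 1.45, whereas Egr1 crosses 0 when irradiated replicate 1 is left out.

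The pattern shared by the members was the mean of their z-scores over the 5 libraries. The single members followed it with Pearson's r from 0.995 for Jund and 0.963 for Junb down to 0.469 for Egr1 and -0.22 for Fosl1, each being part of that mean. Among the 14081 other genes, the most similar were Slc2a8, Ctdnep1, Lrrc10b, Urod and H1f0, with r from 0.999 to 0.9997. With only 5 libraries such values are common, and 745 genes had r of at least 0.95. Chosen for this pattern, their own differences between the groups are not tested here.

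Some features of gene structure, which the choice of the 10 genes did not use, were common to several of them. Jun, Junb, Jund and Ier2 are single-exon genes, 4 of 10, against 3.37% of the tested genes with a protein-coding main transcript. The pentamer ATTTA, the core of AU-rich decay elements, was read in the 3' untranslated region of 9 of the 10 main transcripts. The share was 65.9% among the 12163 tested genes whose main transcript is protein-coding and has an annotated 3' untranslated region. The density of ATTTA was highest in Fos, with 4 copies or 4.89 per kb, followed by Junb with 4.10 per kb and Jun with 3.24 per kb. The members' median was 1.79 per kb, against 1.23 per kb in these 12163 genes. Fosb, at 0.466 per kb, lay below the median of these 12163 genes, and Ier2 held none. These are properties of the annotation and the libraries did not measure mRNA stability.

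In a short list of other dimer partners of AP-1 proteins, no tested gene was called higher, against 12.7% of all tested genes. Of 6 listed genes 4 were tested, and Atf7 alone was called, as lower, against 13.0% of all tested genes. Atf7 had 87.2 and 63.0 CPM in the controls against 40.9, 35.7 and 37.8 CPM in irradiated replicates 1, 2 and 3 (log2 fold change -0.98 ± 0.17, edgeR adjusted p = 0.010). With the transcript length correction it was not called (edgeR adjusted p = 0.068). Atf2, the most abundant partner, was at 94.5 to 125.1 CPM in all libraries (-0.20 ± 0.15, edgeR adjusted p = 0.342). Batf and Batf2, factors of lymphoid and myeloid cells, had at most 1 read in any library. Batf3, named here after its values were seen, was the 1 tested partner with an estimate above 0. It was at 0.210 and 1.61 CPM in the controls and 2.43, 3.38 and 2.22 CPM in irradiated replicates 1, 2 and 3. Its log2 fold change of 1.55 ± 0.76 did not pass the test (edgeR adjusted p = 0.161).

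Of the other immediate early genes, 4 of 27 tested were called higher, close to the 12.7% of all tested genes, and 0 lower, against 13.0%, with a median log2 fold change of 0.52. At an unadjusted p under 0.05, 8 were higher and 2 lower, against 20.9% and 20.1% of all tested genes. Maff, a small Maf protein, went from 7.04 and 11.1 CPM to 32.5, 33.0 and 22.8 CPM (log2 fold change 1.70 ± 0.27, edgeR adjusted p = 0.009). Gadd45b, a stress sensor that acts on the p38 and JNK pathways, went from 10.6 and 18.1 CPM to 43.9, 60.4 and 32.8 CPM (1.67 ± 0.32, edgeR adjusted p = 0.011). In both genes the lowest irradiated library was well above the highest control. The antiproliferative Btg2, a p53 target in cells that have p53 and the most abundant of this list, rose by 0.88 ± 0.26 on the log2 scale (edgeR adjusted p = 0.039). Btg2 was at 72.0 and 97.6 CPM in the controls and 108.2, 194.9 and 166.5 CPM in irradiated replicates 1, 2 and 3, and its groups overlapped in TPM. The small GTPase gene Rhob rose by 0.80 ± 0.16 (edgeR adjusted p = 0.013). Maff, Gadd45b and Rhob kept their calls with the transcript length correction, and Btg2 did not (edgeR adjusted p = 0.055).

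Upstream of the group, 2 of 20 regulators were higher and 5 lower, against 12.7% and 13.0% of all tested genes, with a median log2 fold change of -0.14. Map2k1, the MEK1 kinase of the ERK cascade, was higher, from 30.3 and 43.1 CPM to 86.4, 83.9 and 67.6 CPM (log2 fold change 1.11 ± 0.20, edgeR adjusted p = 0.010). The SRF partners Mrtfb (-1.47 ± 0.27, edgeR adjusted p = 0.010) and Elk4 (-1.47 ± 0.21, edgeR adjusted p = 0.008) and the JNK pathway kinase Map3k1 (-0.83 ± 0.24, edgeR adjusted p = 0.036) were lower. With the transcript length correction only Map2k1 and Elk4 kept their calls.

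Among the feedback regulators, 2 of 16 tested genes were higher, near the 12.7% of all tested genes, and 0 lower, against 13.0%, with a median log2 fold change of 0.51. Without adjustment, 5 were higher and 1 lower at p under 0.05, against 20.9% and 20.1% of all tested genes. The genes called were Nab2, a corepressor of EGR proteins, at 10.2 and 14.1 CPM in the controls and 22.1, 20.4 and 19.5 CPM in irradiated cells (0.76 ± 0.21, edgeR adjusted p = 0.034), and the ERK phosphatase gene Dusp5 (0.69 ± 0.16, edgeR adjusted p = 0.021). Nab2 lost its call with the transcript length correction (edgeR adjusted p = 0.059). Zfp36l2, which promotes decay of AU-rich mRNAs and was the most abundant here, did not pass the test (-0.27 ± 0.15, edgeR adjusted p = 0.211).

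Genes known as AP-1 targets in other cell types mostly had few or no reads in these libraries. Of this list, Ccl2 and Ccl7 did not pass the filter on low counts, and Csf1 was tested but not called. The paper reports more secretion of these cytokines by irradiated mouse SCLC cells, and a rise at the RNA level. Its secretion measurements also ran beyond 24 h. Of 18 listed, 12 did not pass the filter on low counts, with at most 17 reads in any library, and 5 of these had 0 reads everywhere, a count that allows up to 3 reads. Of the 6 tested, 0 were called by edgeR, against 12.7% of all tested genes called higher and 13.0% lower. At an unadjusted p under 0.05 there were also 0, against 20.9% higher and 20.1% lower of all tested genes. With 6 genes such counts say little about the list, whose log2 fold changes ran from -0.53 to 3.79. The most abundant, the heme oxygenase gene Hmox1, was at 13.9 and 21.3 CPM in the controls and 22.9 to 27.8 CPM in irradiated cells, all above both controls (0.49 ± 0.23, edgeR adjusted p = 0.142).

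**Figure D5:**
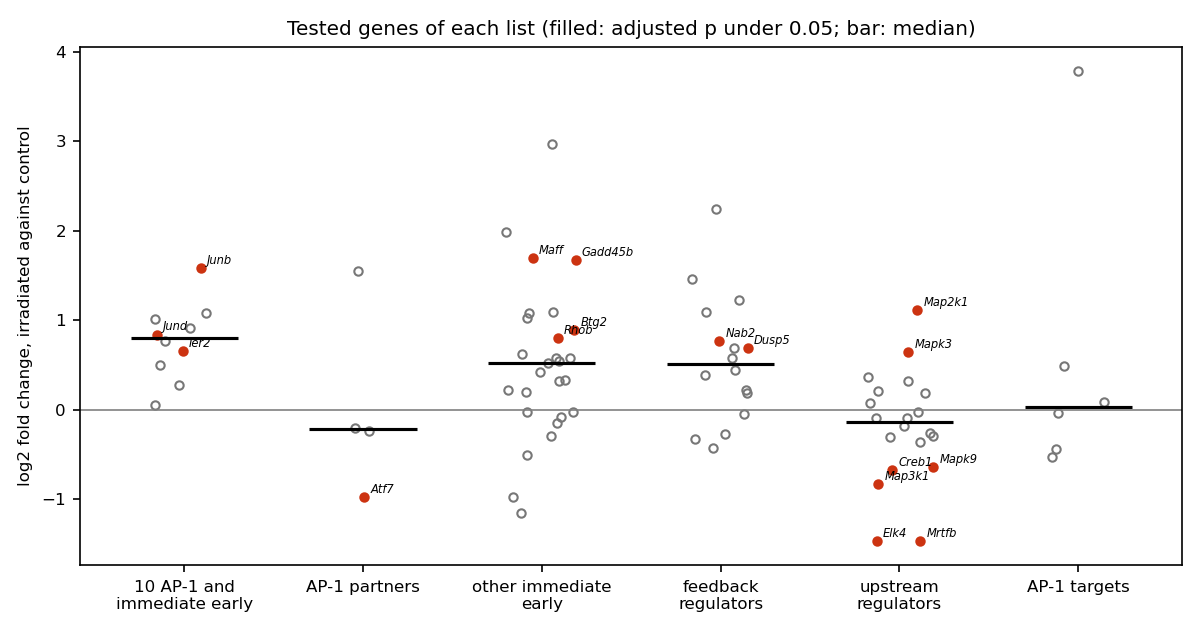
Log2 fold change, irradiated against control, of every tested gene of each list; filled points passed the test at an adjusted p under 0.05 and the bar is the list's median. The medians are 0.80 for the 10 genes, 0.52 for other immediate early genes and 0.51 for feedback regulators, and -0.14 for upstream regulators.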

How the data were processed

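RNA of 2 control and 3 irradiated KP1 samples was sequenced in bulk. The authors quantified reads against mm10 with Salmon (version 0.8.2 in the submitters' processing notes) and deposited estimated counts and TPM per transcript; the annotation release is not given in the sources used here. Of 113116 transcripts, 112762 (99.69%) were matched to GENCODE M21 by identifier, and estimated counts were summed per gene symbol and rounded. edgeR 4.0.16 in R 4.3.3 was used with filterByExpr, TMM and the quasi-likelihood test without a block, with Benjamini-Hochberg adjustment over 14091 genes and a threshold of 0.05. TPM was summed per gene without further scaling. The transcript length correction was an offset from a spline with 5 degrees of freedom of each library on transcript length. DESeq2 1.42.0 and limma 3.58.1 on log2(TPM + 0.5) were alternatives. Scripts were tested on simulated data. Promoter sequences were taken from RefSeq (GRCm38.p6), gene and exon positions from GENCODE M21 on GRCm38. The 10 genes and the other lists were chosen with earlier results of these data known. Of each other list, the up to 4 largest changes that passed the test and the gene with the highest TPM were named; one gene that this rule names is not reported here. No pair of libraries was a duplicate. Floors of 3 reads cover counting error only. Single-cell samples are not analysed here.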

Additional observations from a re-analysis of the deposited data

How the results depend on the processing

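The count of members called higher was 3 and became 5 with no filter on low counts, 1 with the transcript length offset, the replicate block, log2(TPM + 0.5) with limma or a log2 fold change limit of 1.5, and 0 with the replicate block and the transcript length offset together. It ranged from 0 (without control replicate 2) to 3 when single replicates were left out, with 1 each without irradiated replicate 1 or 2; leaving out a control leaves 1, which is assumed to vary like the irradiated group. DESeq2 gave 4. No member was called lower under any alternative. Over the other lists, 8 genes were called higher and 6 lower. No filter gave 15 higher, the replicate block 4 higher and 3 lower, the block with the length offset 0 and 0, limma on TPM 3 higher, the limit of 1.5 2 higher and 0 lower, and the length offset 1 lower. Leaving out single replicates gave 0 to 16 higher and 1 to 8 lower.

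Direction reversed for Fosl1 with the length offset (-0.26), the block with the offset (-0.17), limma on TPM (-0.22) and without irradiated replicate 3 (-0.0024; up to 0.14 without irradiated replicate 1), and for Fosl2 with limma on TPM (-0.15). Egr1 reversed with the block (-0.40), the block with the offset (-0.21), limma on TPM (-0.045), the crossed block (-0.42) and without irradiated replicate 1 (-0.46; up to 1.28 without control replicate 2), and Zfp36l2 with the block and the offset (0.011). The cause was not tested. The TPM scale placed the median of all genes at -0.27, below all of these TPM values, and called 722 genes higher and 2692 lower (21.1% higher, against 49.4% of 1792 and 1834). Leaving out control replicate 2 left 97 higher and 179 lower over all genes.

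Junb was called in 11 of 13 other settings, with estimates of 1.20 to 2.13, Jund in 6, Ier2 and Atf3 in 3 each, Jun in 1 and the others in 0. Replicate numbers 2 and 3 occur in both groups, and the labels do not state a pairing. Same-numbered libraries did not deviate together (r = -0.17 across genes). This r compares a single difference between libraries in each group, so it cannot decide whether they were paired. With the numbers crossed, an alternative chosen after seeing the data, 4 members and 16 and 9 other listed genes were called higher and lower. The low depth of Fosb, Fos and Egr1 limits their precision.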
